A study of Mus musculus with 10 samples.

Results

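The genes described here are named for the proteins of the mitochondrial ribosome. They were taken by symbol, as Mrpl or Mrps followed by a number and without pseudogenes, from probe sets that carry 1 gene symbol, with the brightest probe set standing for a gene. The rule found 71 of the 22180 genes tested. Of these 43 have Mrpl symbols, which name proteins of the large subunit. The other 28 have Mrps symbols, most of which name proteins of the small subunit. Mrps18a, Mrps30 and Mrps36 are exceptions given below, and are counted here by symbol. It used no measured difference between the groups. A further 7 symbols that match it stand only on probe sets shared with another gene and were not used here.

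Transcript levels were measured on 10 Affymetrix arrays, 5 for untreated and 5 for rapamycin-treated mice, with RNA of plasma cells sorted from bone marrow as B220-negative and Blimp1-positive. All mice were of the strain B6.BLIMP1 +/GFP, in which a copy of the Blimp1 locus carries a GFP reporter, and a separate mouse gave each array. The labels used here give no age, dose or length of treatment. Values are log2 signals normalised between arrays, and a log2 difference is the rapamycin mean minus the untreated mean.

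The arrays were checked as a whole before the members were read out. The 7 plasma cell markers had mean log2 signals between 9.92 and 13.42, while the 6 measured B cell markers lay between 4.28 and 7.63. The X-linked transcript Xist averaged 3.83 with no treatment and 9.24 with rapamycin, and the Y-linked transcript Eif2s3y averaged 8.03 and 3.84, so treatment and sex cannot be told apart in any comparison that follows. None of the members lies on the X or Y chromosome; they are spread over 17 autosomes. Rapamycin replicate 4 stood apart on the first principal component, with a score of 22.3, where the rest of its group scored 4.17 to 8.85. The 15 neutrophil markers averaged 6.08 to 6.65 on untreated and 6.41 to 6.88 on rapamycin arrays, with the highest value on rapamycin replicate 4. Of them 5 had higher values with rapamycin (unadjusted p under 0.05) and 0 lower ones, where 6.13% and 3.26% of all genes did. Of the B cell markers 1 had higher and 3 had lower values at that threshold, to be read against the same shares. In the adjusted test 0 markers of either list passed. All 7 plasma cell markers had log2 differences above 0, where 53.1% of all genes had. The groups of 2 did not overlap (1.48% of all genes were apart with rapamycin higher), and 0 passed the adjusted test. Of 10 eosinophil and basophil markers Prg2 rose, by 0.42 (adjusted p = 0.0473 in limma), where 0.126% of all genes rose, and 6 had differences below 0. Their part in the members' differences was not tested. In RNA of a sorted population, fewer cells of a type and less RNA per cell cannot be told apart.

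Mitochondria keep a small genome of their own, whose few messages all encode proteins of oxidative phosphorylation. They are translated inside the organelle by a separate ribosome, whose RNA comes from the mitochondrial genome and whose proteins are all encoded in the nucleus, made in the cytosol and imported. Many of these proteins descend from those of the bacterial ribosome, and others were added in the evolution of mitochondria. Rapamycin inhibits mTOR complex 1, a kinase complex known to promote translation of messages for mitochondrial proteins, mitochondrial ribosomal proteins among them. The arrays measure transcript levels and not translation.

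The promoters of these genes share letters that the choice of members did not use, and a few sequences are shown for this. RefSeq promoter windows of the build GRCm38.p6, from 250 bases before to 50 after an annotated transcript start, were at hand for 62 members. The letters CCGGAAG, the core bound by ETS factors such as GABP, stood on either strand in 23 of the 62 (37.1%). They stood in 9.93% of the 27025 genes with a window, and in 13.3% of the 15358 protein-coding genes tested that had one. The lines that follow show the letters in capitals, with 10 bases on either side, read 5′ to 3′ on the strand that holds them. Shown are the 3 highest and the 3 lowest log2 differences among members that hold the letters, with a single window and both flanks. Where a window holds the letters more than once, the occurrence farthest upstream is shown.
Mrpl52 (chr14:54426852-54426878, - strand): gccgggaaaaCCGGAAGccgacatctt
Mrps21 (chr3:95871480-95871506, + strand): tctctgcggaCCGGAAGcggaagctac
Mrps18c (chr5:100798593-100798619, - strand): gcttcccgggCCGGAAGtcacgtgacc
Mrpl34 (chr8:71464879-71464905, + strand): actacagctcCCGGAAGgccccgcggc
Mrps23 (chr11:88204393-88204419, - strand): cgggctgttaCCGGAAGcggaagcggc
Mrpl17 (chr7:105811308-105811334, - strand): catgctccgcCCGGAAGgcgcctcctc
Of 21 such occurrences in 19 members, 18 began within 100 bases of the transcript start. The highest log2 difference of a member with the letters was 0.26, for Mrpl52. Mrpl14, Mrpl2, Mrpl23, Mrpl42, Mrpl36, Mrpl47 and Mrps10 had higher ones and have a window without the letters. Mrpl19, Mrpl15 and Mrpl13, also higher, have no window.

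Other letters were searched on both strands in the same windows, and matches to different letters may overlap. The site of the nuclear respiratory factor NRF1, searched as GCGCA and GCGC with 1 base of any kind between them, was held by 11 of the 62 members (17.7%), against 5.19% of all genes with a window and 7.68% of the protein-coding genes tested. The letters AAGATGGCG, which match YY1 sites, were held by 8 members (12.9%), against 1.64% and 2.28%. The E-box CACGTG, bound by MYC, was held by 5 members (8.06%), against 8.09% and 9.4%, and GGGCGG by 32 (51.6%), against 38.2% and 51.8%. The promoters of the member with the highest log2 difference among those with a single window and of the 2 with the lowest are printed in full, with the ETS, NRF1 and YY1 letters in capitals.
Mrpl14 (chr17:45686099-45686398, + strand): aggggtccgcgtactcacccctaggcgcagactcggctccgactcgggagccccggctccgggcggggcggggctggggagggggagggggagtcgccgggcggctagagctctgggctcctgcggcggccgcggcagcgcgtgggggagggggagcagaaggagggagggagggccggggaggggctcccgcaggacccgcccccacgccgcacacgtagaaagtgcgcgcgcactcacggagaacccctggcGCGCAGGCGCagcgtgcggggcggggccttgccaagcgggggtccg
Mrpl17 (chr7:105811038-105811337, - strand): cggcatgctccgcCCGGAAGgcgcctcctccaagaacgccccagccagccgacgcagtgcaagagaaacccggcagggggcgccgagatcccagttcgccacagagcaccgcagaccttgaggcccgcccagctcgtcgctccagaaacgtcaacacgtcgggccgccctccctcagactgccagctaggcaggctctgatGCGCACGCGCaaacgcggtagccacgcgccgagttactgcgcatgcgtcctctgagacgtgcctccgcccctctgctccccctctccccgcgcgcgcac
Mrpl50 (chr4:49521034-49521333, - strand): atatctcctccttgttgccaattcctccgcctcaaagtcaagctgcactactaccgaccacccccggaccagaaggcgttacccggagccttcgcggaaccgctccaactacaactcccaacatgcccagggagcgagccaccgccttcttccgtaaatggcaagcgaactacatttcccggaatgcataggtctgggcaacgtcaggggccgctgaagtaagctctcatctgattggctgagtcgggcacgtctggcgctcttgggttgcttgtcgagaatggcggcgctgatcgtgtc
Mrpl14 holds NRF1 letters, Mrpl17 holds both ETS and NRF1 letters, and Mrpl50 holds none of the 3. Members with the ETS letters had a median log2 difference of 0.10 and those without a median of 0.08. At an unadjusted p under 0.05, 2 of 23 and 10 of 39 were higher with rapamycin, where 6.13% of all genes tested were. The comparison of the letters with the differences is a description, and a match is not evidence that a factor binds.

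The main comparison asks how transcripts of the mitochondrial ribosome differ when mice receive rapamycin. Most members had slightly higher values with rapamycin. The log2 difference was above 0 for 59 of 71 members (83.1%), against 53.1% of all genes tested. Its median was 0.12 over the members and 0.01 over all genes, and the quartiles of the members were 0.04 and 0.21. Large-subunit proteins such as Mrpl19, Mrpl14, Mrpl2 and Mrpl23 had the highest values, at 0.30 to 0.41, while Mrpl50 and Mrpl17 had the lowest, at -0.17 and -0.16.

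In limma, a linear model fitted to all genes with moderated variances, 0 of 71 members passed a Benjamini-Hochberg adjusted p under 0.05, where 0.153% of all genes did (0.126% with higher and 0.0271% with lower values). The smallest adjusted p of a member was 0.142. At an unadjusted p under 0.05, 16 members (22.5%) were higher with rapamycin, where 6.13% of all genes were, and 0 were lower, where 3.26% were. The differences were small beside the precision. Standard errors of the members ran from 0.07 to 0.20, with a median of 0.10, and 55 of 71 intervals at 95% included 0. Over all members the intervals reached from -0.53 to 0.63, so no interval of a member reached a 2-fold change in either direction. In all, 21 members had a log2 difference of at least 0.2, 17 lay between 0.1 and 0.2, 28 lay within 0.1 of 0, and none was at -0.2 or below.

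**Figure D1:**
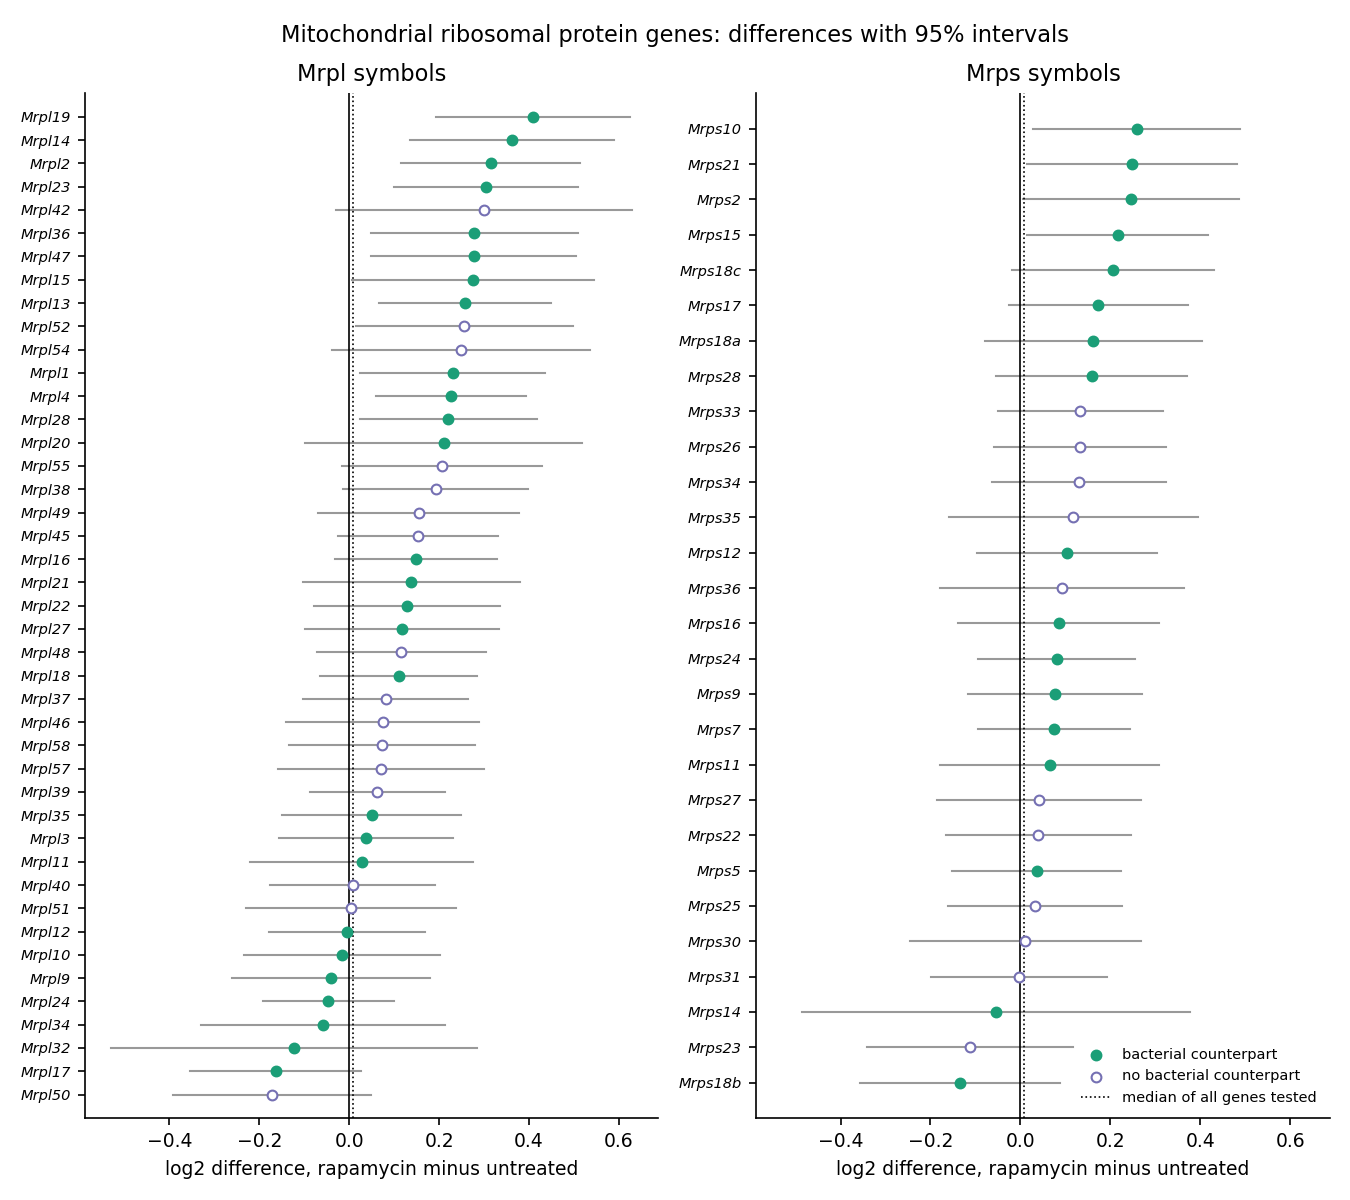
Log2 difference (horizontal axis, rapamycin minus untreated) of the 71 members, 43 Mrpl symbols on the left and 28 Mrps symbols on the right, with limma's 95% intervals as lines; filled points are members with a bacterial counterpart, open points those without, and the dotted line is the median of all genes tested (0.01). Most points lie to the right of 0, and 55 of 71 lines cross it.

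The members' signals were mostly in the upper part of the arrays' range. All 71 averaged above the arrays' lower quartile of 3.81 to 3.87, 68 averaged above the median gene, and 52 were among the 5545 genes of the top level class when genes were split by mean signal into 4 classes of equal size. Over all genes of that class the median log2 difference was 0.03, and 10.9% were higher at an unadjusted p under 0.05. The 52 members in it had a median of 0.13, and 13 of them were higher. In the class next below, the median was 0.02 for all genes and 0.05 for 16 members.

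Among large-subunit proteins, Mrpl19 had the highest difference. Its log2 signal was 6.33, 6.72, 6.31, 6.48 and 6.51 on the untreated arrays and 6.94, 6.77, 7.11, 6.76 and 6.82 on the rapamycin arrays. Each of the 5 rapamycin arrays lay above all 5 untreated arrays, although the gap between 6.72 and 6.76 was narrow. The difference was 0.41 (SE 0.10, 95% interval 0.19 to 0.62), with an adjusted p of 0.142 in limma.

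Mrpl14, which lies at the face that joins the subunits and is the docking site of the assembly factor Malsu1, had signals of 6.83, 7.23, 7.22, 7.04 and 7.30 on untreated arrays. On rapamycin arrays it was at 7.27, 7.54, 7.43, 7.48 and 7.70. Only rapamycin replicate 1 lay within the untreated range, and the difference was 0.36 (SE 0.11, adjusted p = 0.232 in limma). Mrpl2, whose bacterial counterpart helps to build the site of peptide bond formation, was at 7.73, 7.92, 7.89, 8.14 and 7.91 on untreated and at 8.35, 8.29, 8.26, 8.24 and 8.02 on rapamycin arrays. Here rapamycin replicate 5 was the array that lay within the untreated range, and the difference was 0.31 (SE 0.09, adjusted p = 0.233 in limma).

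Several proteins whose bacterial counterparts line or surround the tunnel through which the new chain leaves were among the members with high values, and others of that site were not. Mrpl23 was at 7.70, 7.76, 7.69, 7.53 and 7.67 on untreated and at 7.97, 7.69, 8.12, 8.15 and 7.94 on rapamycin arrays. All but rapamycin replicate 2 exceeded every untreated array, and the difference was 0.30 (SE 0.10, adjusted p = 0.281 in limma). Mrpl4 was at 7.86, 7.71, 7.68, 7.63 and 7.72 on untreated and at 7.87, 7.89, 7.97, 7.98 and 8.02 on rapamycin arrays. Its groups did not overlap, as for Mrpl19, at a difference of 0.23 (SE 0.08, adjusted p = 0.336). These 2 were the only members of 71 whose groups did not overlap (1.48% of all genes had groups apart with rapamycin higher), and 0 members were apart in the other direction, where 0.586% of all genes were. Mrpl47, the counterpart of another protein of the tunnel exit, differed by 0.28 and Mrpl22 by 0.13. Mrpl24 differed by -0.05 and Mrpl17 by -0.16.

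Other large-subunit members at an unadjusted p under 0.05 were Mrpl13 (0.26), Mrpl36 (0.28), Mrpl15 (0.28), Mrpl1 (0.23), Mrpl28 (0.22) and Mrpl52 (0.26). Without rapamycin replicate 4, Mrpl52 was at 0.15 and Mrpl15 at 0.17. Mrpl13 was at 7.75, 7.84, 7.75, 7.65 and 7.90 on untreated and at 7.89, 7.90, 8.19, 8.02 and 8.18 on rapamycin arrays. Its 2 lowest rapamycin arrays, replicates 1 and 2, lay close to the highest untreated array. Mrpl36, a small zinc-binding protein in bacteria, had a second, dimmer probe set at a mean signal of 4.25 with a log2 difference of -0.03, so that its probe sets disagree. Of the 9 members with 2 probe sets, Mrps17 was the other whose signs differed, at 0.17 and -0.03.

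Mrpl42 and Mrpl54, proteins without a bacterial counterpart, had differences of 0.30 and 0.25 with the wider standard errors of 0.16 and 0.13, and their intervals included 0. Mrpl42 was at 7.72, 8.11, 8.52, 8.69 and 8.54 on rapamycin and at 7.98, 8.30, 7.93, 8.06 and 7.80 on untreated arrays. Its rapamycin values therefore ran from below the lowest to above the highest untreated array. Mrpl52 had its highest value on rapamycin replicate 4, at 8.73, where the rest of the group lay at 8.06 to 8.38.

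Mrpl12, which forms the stalk by which the large subunit recruits translation factors, was at 5.67, 5.55, 5.56, 5.65 and 5.55 on untreated and at 5.44, 5.68, 5.69, 5.55 and 5.61 on rapamycin arrays. Its difference was -0.0048 (95% interval -0.18 to 0.17), and its dimmer probe set gave -0.02. Mrpl10, the base to which it is attached, differed by -0.02, and Mrpl11, another protein of this region, by 0.03 (95% interval -0.22 to 0.28). Mrpl58, a peptidyl-tRNA hydrolase that became part of the ribosome, differed by 0.07 and Mrpl45, which ties the ribosome to the inner membrane, by 0.15.

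At the low end stood Mrpl50 and Mrpl17. Mrpl50 was at 7.53, 7.90, 7.95, 8.16 and 7.97 on untreated and at 7.66, 7.71, 7.75, 7.80 and 7.73 on rapamycin arrays. All untreated arrays but replicate 1 exceeded every rapamycin array, and untreated replicate 1 lay below them all, for a difference of -0.17 (SE 0.10, adjusted p = 0.669 in limma). The difference of Mrpl50 was -0.26 without untreated replicate 1 and -0.11 without untreated replicate 4. Mrpl17 was at 8.20, 8.39, 8.49, 8.46 and 8.39 on untreated and at 8.12, 8.05, 8.39, 8.32 and 8.23 on rapamycin arrays, with overlapping groups and a difference of -0.16 (adjusted p = 0.622). Mrpl32, a protein that is cut to its mature form by a protease of the inner membrane, differed by -0.12 with a wide interval of -0.53 to 0.29, and rapamycin replicate 5 was at 6.54 against 5.50 to 5.74 on the other rapamycin arrays. Leaving out 1 array moved Mrpl32 between -0.30 and -0.027. Mrpl34 differed by -0.06.

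**Figure D2:**
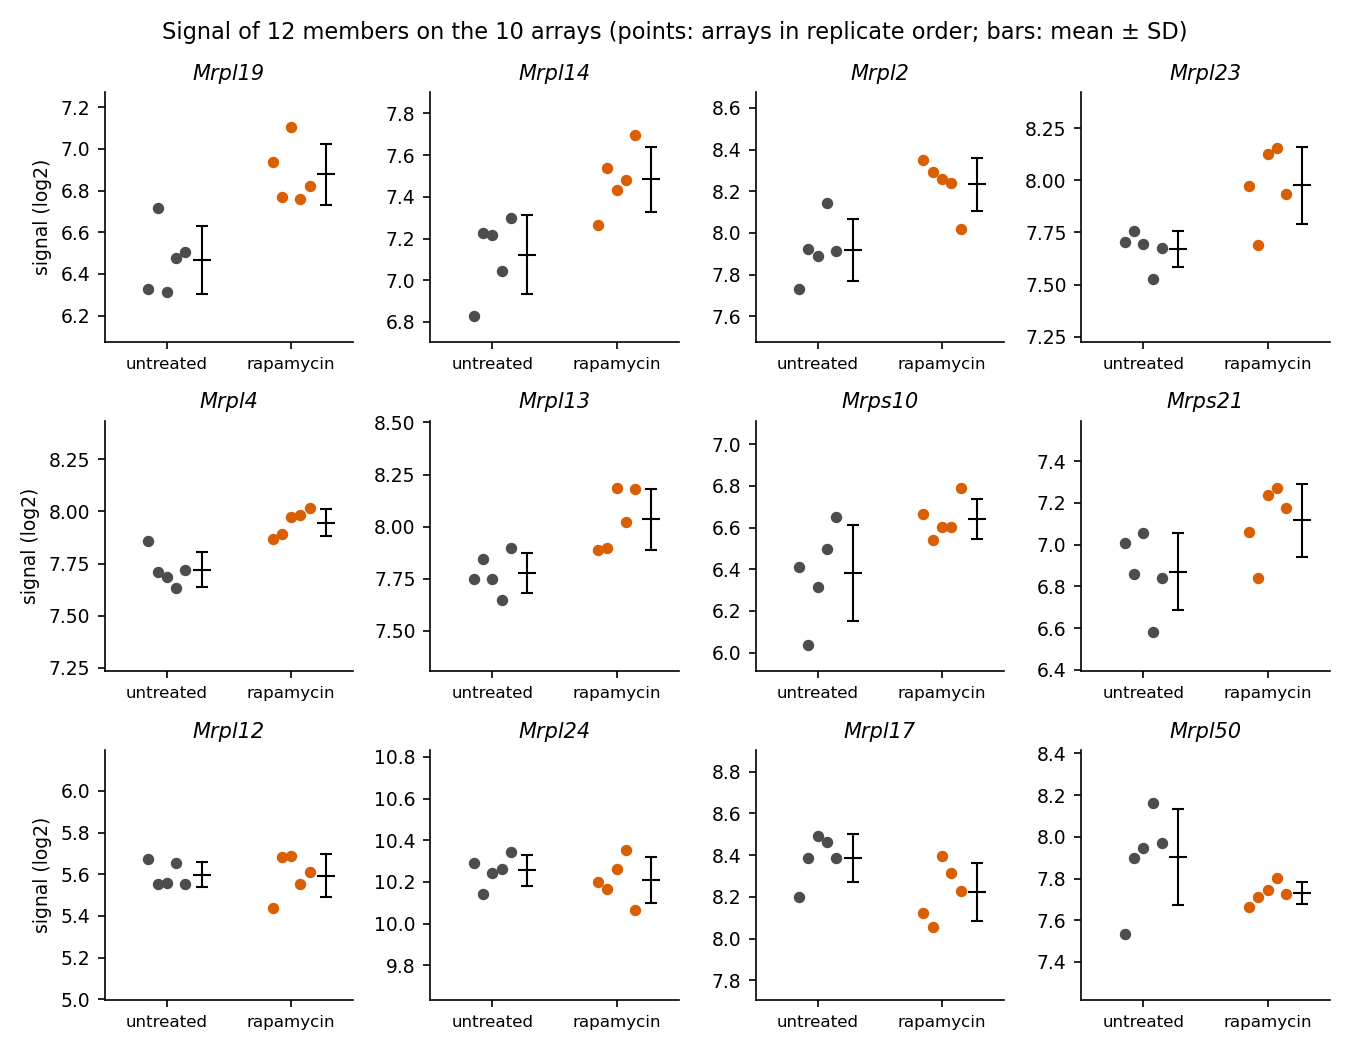
Log2 signal of 12 members on the 10 arrays, with points for arrays in replicate order and bars for mean ± SD (n = 5 per group); each vertical axis spans the same log2 range around the gene's mean. The groups are apart for Mrpl19 and Mrpl4, overlap on single arrays for Mrpl14, Mrpl2 and Mrpl23, and coincide for Mrpl12 and Mrpl24.

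The highest log2 difference of a small-subunit member was 0.26. Of 28, 24 had a log2 difference above 0, with a median of 0.09, against 35 of 43 and a median of 0.13 for the large subunit. At an unadjusted p under 0.05, 4 of 28 (14.3%) and 12 of 43 (27.9%) were higher, with 0 lower in either. Over all genes 6.13% were higher and 3.26% lower. These counts depended on the processing and on single arrays. With a further normalisation of all arrays, cyclic loess, 1 of 28 (3.57%) and 9 of 43 (20.9%) were higher, where 5.15% of all genes were. With the authors' filtered table of probe sets, 1 of 19 (5.26%) and 9 of 27 (33.3%) were higher, where 7.52% of all genes were. The small-subunit count was 1 (3.57%) without untreated replicate 2, rapamycin replicate 4 or rapamycin replicate 5. In those fits 5.44% to 5.64% of all genes were higher. The count was 2 (7.14%) when any of untreated replicates 1, 3 and 5 and rapamycin replicates 1 and 3 was left out. Replicate number as a block also gave 2. In these fits 5.26% to 5.82% of all genes were higher. The large-subunit count ran from 7 (16.3%) without rapamycin replicate 3 to 14 (32.6%) without rapamycin replicate 2, with 8 (18.6%) without untreated replicate 1. Whether the subunits differ was not tested. Mrps18a and Mrps30 carry small-subunit names but sit in the large subunit, and they differed by 0.16 and 0.01. Both are counted among the 28, as is Mrps36.

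The small-subunit members at that threshold in the main fit were Mrps10, Mrps21, Mrps2 and Mrps15, all with bacterial counterparts, and the groups overlapped for each. Mrps10, a protein of the subunit's head, was at 6.41, 6.04, 6.31, 6.50 and 6.65 on untreated and at 6.67, 6.54, 6.60, 6.60 and 6.79 on rapamycin arrays. Rapamycin replicates 1 and 5 exceeded every untreated array and the others lay near the top of the untreated range, and the difference was 0.26 (SE 0.11, adjusted p = 0.461 in limma). Mrps21 was at 7.01, 6.86, 7.05, 6.58 and 6.84 on untreated and at 7.06, 6.84, 7.24, 7.27 and 7.18 on rapamycin arrays. Rapamycin replicate 2 lay within the untreated range, and the difference was 0.25 (adjusted p = 0.496). Mrps2 differed by 0.25 and Mrps15 by 0.22.

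Mrps12, the protein of the decoding centre, differed by 0.10 (95% interval -0.10 to 0.30), and Mrps16 by 0.09. Among the 3 paralogs of the Mrps18 family, Mrps18c differed by 0.21, Mrps18a by 0.16 and Mrps18b by -0.14, with -0.36 on the dimmer probe set of Mrps18b (adjusted p = 0.512 from limma fitted to all probe sets). None of the 3 passed the test, and all 3 intervals of the brighter probe sets included 0. Mrps23, of the mitochondria-specific proteins, differed by -0.11. Mrps14 had the widest interval on a dim signal, from -0.49 to 0.38. Mrps36, also dim at a mean of 4.47, differed by 0.09, and its product has since been assigned to the 2-oxoglutarate dehydrogenase complex rather than to the ribosome.

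Members with and without bacterial counterparts, 44 and 27 of the 71, were also counted apart. At an unadjusted p under 0.05, 15 of 44 members with a bacterial counterpart (34.1%) were higher with rapamycin, against 1 of 27 without (3.7%), namely Mrpl52, and against 6.13% of all genes. The medians were closer, at 0.13 and 0.08, and a difference above 0 was seen for 35 of 44 and 24 of 27. The counts depended on the threshold. Just past it, with higher values, lay Mrpl55, Mrpl38, Mrpl42, Mrpl54 and Mrpl45 without a counterpart (unadjusted p of 0.066 to 0.089 in limma). Of members with one, Mrps18c, Mrps17 and Mrpl16 lay at 0.070 to 0.099. Both classes had similar signals, with median levels of 7.26 and 7.24. Over the alternatives tried, from 20.5% to 35.7% of members with a counterpart were higher at an unadjusted p under 0.05. Of those without, it was 0% to 11.1%, and of all genes 5.15% to 8.94%. The classes were drawn from textbook knowledge of the ribosome, and the difference between them was not tested.

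**Figure D3:**
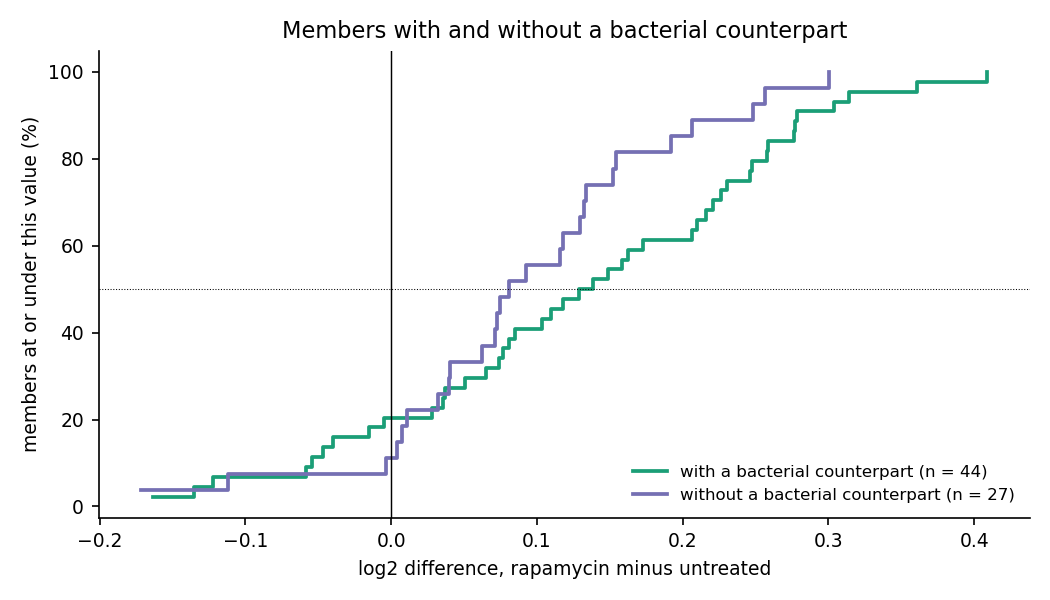
Cumulative share of members (vertical axis, percent) at or under a log2 difference (horizontal axis) for the 44 members with and the 27 without a bacterial counterpart. The curves cross at the low end and part on the right, where the medians are 0.13 and 0.08.

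The difference was not carried evenly by the arrays. Each member was expressed as its deviation from its own mean over the 10 arrays, and the median over members was taken per array. It was -0.12, -0.01, -0.02, -0.06 and -0.08 on untreated replicates 1 to 5, and -0.0043, -0.020, 0.09, 0.14 and 0.08 on rapamycin replicates 1 to 5. Rapamycin replicates 3, 4 and 5 lay above all other arrays, whereas rapamycin replicate 2 lay just under untreated replicates 2 and 3, so that the groups overlapped. Above their own mean stood 16, 34, 32, 25 and 20 of the 71 members on the untreated arrays and 35, 31, 53, 59 and 49 on the rapamycin arrays.

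The median over all genes stayed between -0.02 and 0.03 on every array, with 0.03 on rapamycin replicate 4, where 58.9% of all genes and 83.1% of members lay above their means. Without that array, the members' median log2 difference was 0.09 and 10 members were higher at an unadjusted p under 0.05, where 5.64% of all genes were. Without rapamycin replicate 3, 9 were higher (5.26% of all genes). Without untreated replicate 1, 10 were higher (5.82% of all genes) and 2 lower.

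**Figure D4:**
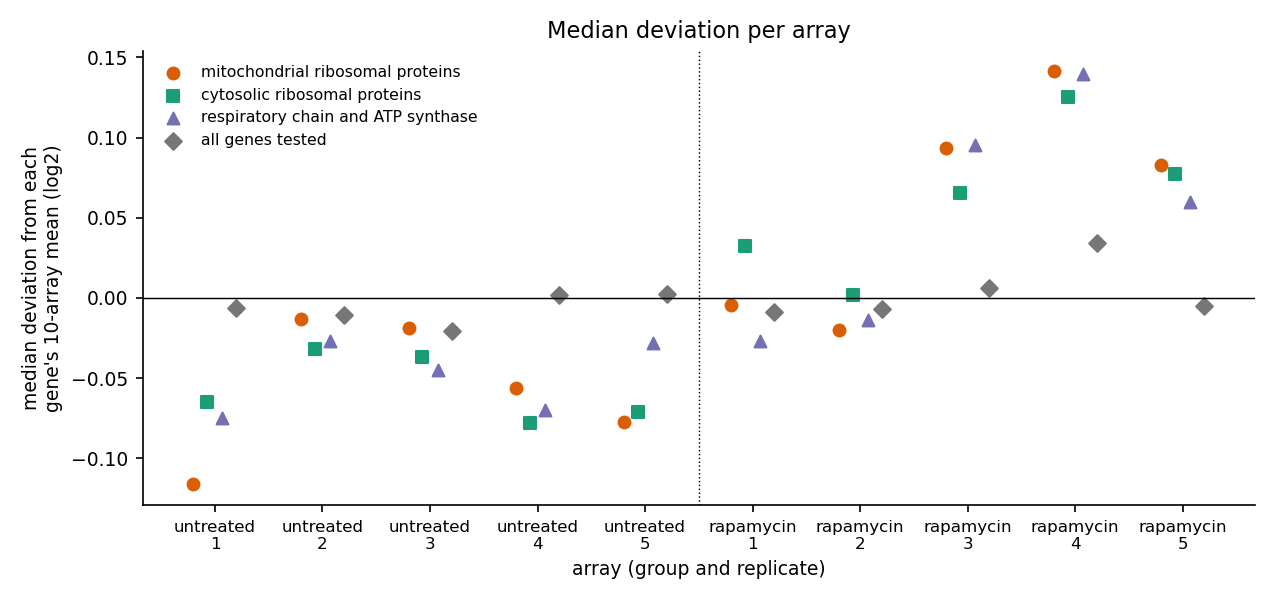
Median deviation from each gene's 10-array mean (vertical axis, log2) on the 10 arrays, for the 71 members, 66 cytosolic ribosomal protein genes, 79 genes of the respiratory chain and ATP synthase, and all 22180 genes. The members lie lowest on untreated replicate 1 (-0.12) and highest on rapamycin replicate 4 (0.14), and all 3 groups of genes are highest on rapamycin replicates 3, 4 and 5.

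Cytosolic ribosomal protein genes and nuclear genes of oxidative phosphorylation were read from the same fit, and no test of the members against them was made. The 66 genes of cytosolic ribosomal proteins had a median log2 difference of 0.10. At an unadjusted p under 0.05, 26 (39.4%) had higher values while 0 had lower ones, against 6.13% and 3.26% of all genes and 10.9% higher in the top level class. In the adjusted test, 1 of them, Rpl28 of the large cytosolic subunit, rose at an adjusted p of 0.0498 in limma. Their per-array medians did not overlap, at -0.08 to -0.03 on untreated and 0.0020 to 0.12 on rapamycin arrays. The 79 nuclear genes of the respiratory chain and ATP synthase, most of whose products work in complexes with those the mitochondrial ribosome makes, had a median of 0.11. Of them 22 (27.8%) had higher and 2 had lower values at an unadjusted p under 0.05, to be read against the same shares. Their per-array medians were -0.07 to -0.03 and -0.03 to 0.14, overlapping as the members' did. Rapamycin replicates 3, 4 and 5 were the highest arrays for all 3 groups of genes.

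Other genes of mitochondrial translation were read from the same fit and were not tested against the members. Of 15 translation factors, 0 passed the test in limma, and the median was 0.06. At an unadjusted p under 0.05, Tsfm and Gfm1 had higher values and Tufm had lower ones, all 3 being elongation factors. Of the 15, that is 13.3% higher and 6.67% lower, against 6.13% and 3.26% of all genes. Tsfm, the exchange factor, was at 7.41 ± 0.11 without and 7.65 ± 0.16 with rapamycin (SD, n = 5 each). Tufm, the factor it recharges and which brings aminoacyl-tRNA to the ribosome, was at 8.48 ± 0.24 and 8.24 ± 0.09, with adjusted p of 0.433 and 0.492 in limma.

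Of 22 genes of ribosome assembly and rRNA modification, 0 passed, with a median of 0.03, and at an unadjusted p under 0.05 there was 1 gene in each direction (4.55% each, against 6.13% higher and 3.26% lower over all genes). The higher was Dhx30, an RNA helicase of mitochondrial RNA granules (0.30), and the lower Noa1, a GTPase needed for small-subunit assembly (-0.21). Among 19 mitochondrial aminoacyl-tRNA synthetases 0 passed, and none reached an unadjusted p under 0.05, with a median of 0.07. Lars2, the leucine enzyme, differed by 0.23 and Sars2, the serine enzyme, by 0.16. Among 20 genes of mitochondrial transcription and RNA processing 0 passed, with a median of 0.02, and 1 (5.0%) was higher at an unadjusted p under 0.05, Mtpap, the mitochondrial poly(A) polymerase (0.21). That share lies below the 6.13% of all genes. Hsd17b10, an X-linked subunit of mitochondrial RNase P, differed by 0.17.

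Proteins of the mitochondrial ribosome that carry other symbols were measured for 3 genes, and 0 passed. Dap3, a GTP-binding protein of the small subunit, differed by -0.10 and Gadd45gip1, of the large subunit, by 0.09. The messages that the mitochondrial ribosome translates were measured for 10 genes of the mitochondrial genome, and 0 passed and none reached an unadjusted p under 0.05. Their median difference was 0.07, with ND3 at 0.19 and ND6 at 0.19, both encoding subunits of complex I, and the smallest adjusted p was 0.741 in limma.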

How the data were processed

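The values deposited by the authors are log2 signals and the submitters' processing notes name RMA. RMA subtracts background, equalises the distributions of arrays by quantiles and combines the probes of a set. A shift of all transcripts one way is not seen after such a step. The whole table of 41345 probe sets was used as deposited. A filtered table of 12280 of its rows, whose rule is not given in the sources used here, was an alternative. Per the labels, RNA was biotin-labelled with an Affymetrix kit.

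Groups came from sample titles. The platform annotation named 23521 probe sets with 1 symbol, 1820 with several, and left 16004 unnamed here. The brightest probe set stood for a gene. All 22180 genes were fitted with limma 3.58.1 in R 4.3.3 (lmFit, eBayes with an intensity trend, two-sided, no covariate, no filter), with Benjamini-Hochberg adjustment over all genes. The number of arrays limits the precision. On simulated data for this comparison (22180 genes, a small part of them changed, noise independent between genes) the fit recovered 76% of genes changed by 0.5 and 100% of those changed by 1. It made 11 false calls there, and called 0 where no gene was changed. The members' differences all lay below 0.5 (highest 0.41), and recovery of changes that small was not simulated.

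Named members were those past the test, the 12 highest and 6 lowest differences, the 5 brightest and 5 dimmest, those whose probe sets disagree in sign by over 0.2, and 2 genes of each related list with the smallest p. Other members named for a role were picked with their values in view. The members and lists were chosen with earlier results of these data known. A comparison by protein length was planned and not made, for want of a protein table. Promoter sequences are from RefSeq, build GRCm38.p6; the files name no build, and motif letters were chosen after the data were seen. Alternatives covered a replicate block, variance model, array weights, probe set choice, a filter on level, the filtered table, normalisation, leaving out each array and, added after seeing the data, protein-coding genes only. Figures were drawn with matplotlib 3.10.9.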

Additional observations from a re-analysis of the deposited data

Results flagged for a closer look

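Each member's values within a group of 5 arrays, and the per-array median deviation of the members, were searched for an array that stands apart from the other 4 by Dixon's criterion (a gap above 0.71 of the group's range). Of 144 groups searched, 9 held such an array, all of them for single members, and chance gives about 1 in 20. They were spread over 7 arrays and did not gather on rapamycin replicate 4.

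On rapamycin replicate 3, Mrps27 was low at 5.69 against 6.08 to 6.12 on the other rapamycin arrays, Mrpl10 was low at 6.61 against 6.81 to 6.89, and Mrps33 was high at 7.35 against 7.24 to 7.26. Mrpl32 was high on rapamycin replicate 5, at 6.54 against 5.50 to 5.74, and Mrps5 was high on rapamycin replicate 2, at 7.48 against 7.19 to 7.25. Among untreated arrays, Mrpl52 was low on replicate 3, at 7.92 against 8.06 to 8.12, and Mrps16 was high on replicate 2, at 10.01 against 9.67 to 9.76. Mrps22 was low on untreated replicate 5, at 6.23 against 6.42 to 6.49, and Mrpl51 was high on untreated replicate 4, at 7.20 against 7.07 to 7.10.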

How the results depend on the processing

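No member passed the adjusted threshold in limma under any of the 19 alternatives, and the smallest adjusted p of a member ranged from 0.0827 to 0.297. The members' median log2 difference stayed positive under all of them, from 0.09 to 0.14. In the reported fit 16 of 71 members were higher at an unadjusted p under 0.05, where 6.13% of all genes were. The count was 10 of 46 with the filtered table (7.52% of all genes) and 10 of 71 with cyclic loess (5.15%). Without an array, 9 to 18 of 71 were higher (5.26% to 6.06% of all genes). Of members lower, 0 in the reported fit (3.26% of all genes), 1 was found with the mean of all probe sets, 1 with the filtered table, 1 with cyclic loess, and 0 to 2 without an array. The brighter probe set of Mrps18b is not in the filtered table. Its difference was -0.36 there, from the dimmer probe set, and -0.25 with the mean of its probe sets. The cause of the changes in these counts was not tested. With replicate number as a block, 13 members were higher (5.69% of all genes) and 0 lower. At the adjusted threshold that fit called 21 genes of all, against 34 in the reported fit. Same-numbered arrays did not deviate together (correlations of -0.07 to 0.05). The labels used here do not say whether equal numbers mark paired samples, and the correlations cannot settle it. Over all genes, 70 were called among brighter genes only, 107 in the filtered table and 51 with array weights, and 20 to 39 without an array, with 20 without untreated replicate 3 or without rapamycin replicate 1. Of 27 named members, 4 near 0 changed sign in 15 of 506 recomputed values. With array weights Mrps30 was at -0.038 and Mrpl12 at 0.011. Without an array, Mrpl12 ran from -0.028 to 0.034, Mrps30 from -0.057 to 0.084, Mrps14 from -0.16 to 0.12 and Mrpl34 from -0.15 to 0.034.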
